A study of Mus musculus with 2 samples.

Results

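Ion channel subunit genes were compared between mouse breast tumour cells of the line AS0574 labelled Rnf8-/- and cells of the same line in which Rnf8 had been put back. A gene belonged to the set where its symbol carried the stem of a channel family, namely Kcn for potassium channels, Scn for sodium channels (Scnn1 genes, of the epithelial sodium channel, included), Cacn for voltage-gated calcium channels, Clcn for CLC chloride channels and exchangers, Ano for anoctamins, Trpc, Trpm or Trpv for TRP cation channels, and Gabr for GABA-A receptors. This took 194 of the 23562 genes in the data, of which 92 were potassium, 26 calcium, 21 TRP, 19 GABA-A, 17 sodium, 10 anoctamin and 9 Clcn genes. The first form is given in the labels as Rnf8-/-;Trp53Δ/Δ and the second as the same genotype complemented with Rnf8, so the labels give both forms the same Rnf8-/- and Trp53Δ/Δ alleles. Each form was represented by 1 library of total RNA, so nothing below could be checked against replicates or given a p-value. The vector and promoter that drove the added Rnf8, and whether either form is a single clone, are not stated in what was available here.

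Ion channels are membrane proteins that let selected ions pass down their gradients. Most are assemblies of pore-forming subunits, which set the ion that passes and the stimulus that opens the pore, with accessory subunits that change trafficking and gating. In secretory epithelia such as the mammary gland, potassium channels hold the membrane voltage, calcium-activated and other chloride channels carry anion secretion, and the sodium-potassium pump and the sodium-potassium-chloride cotransporter supply the gradients. Many voltage-gated sodium and calcium channels and GABA-A receptors are best known from neurons and muscle.

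Levels are given as RPKM, the reads of a gene scaled to its length and to the library's total, and a difference as log2(RPKM + 1) in the null library minus that in the complemented library. A gene was called higher or lower in the null library at a difference of at least 1 or at most -1 on that scale, a 2-fold rule on levels raised by 1 RPKM. A low gene can therefore lie inside the rule with RPKM values more than 2-fold apart. Intervals are exact 95% limits that take in counting error alone. The null and complemented libraries held 57263401 and 48607808 counted reads. For a gene of 2000 bases 3 reads corresponded to 0.0262 and 0.0309 RPKM. Rnf8 stood at 10.5 RPKM (9.94 to 11.1) from 1224 reads in the null library and at 596 RPKM (591 to 601) from 58868 reads in the complemented library, the order that the labels give. The null library thus still held Rnf8 reads, and which exons the allele removes is not stated in what was available here. An overlapping gene on the same strand, Gm28043, shares 13.2% of the exon bases of Rnf8. The 2 libraries also differed in cell type markers. All 8 epithelial markers examined were higher in the null library (summed level 4066 against 1.17 RPKM, with Krt5 at 0 reads in the complemented library), and in the complemented library these defining markers of mammary epithelium were at or near 0. Of 8 mesenchymal markers 6 were lower in the null library and 1 higher (507 against 1610 RPKM summed, none at 0 reads). The part of these markers in the channel differences was not tested. In bulk RNA, fewer cells of a type and less RNA per cell cannot be told apart. Of 8 neuronal markers, Map2 was higher and Tubb3 lower in the null library, while Snap25 and Nefl had 0 reads in both libraries and Rbfox3 and Stmn2 had 0 in the null, and the summed levels were 6.46 and 4.14 RPKM. The 7 muscle markers were summed at 1.49 and 1.16 RPKM with Myod1 at 0 in both, and the 6 endothelial markers at 0.302 and 0.797 RPKM with Kdr at 0 in the null. The 7 leukocyte markers measured were summed at 17.7 and 11.2 RPKM, with Cd68 giving 94.7% and 83.7%, Lyz2 lower in the null library (3 against 75 reads) and Ptprc at 0 reads in the null and 1 in the complemented library. The 6 Schwann and glial markers were summed at 13.5 and 15.2 RPKM, where S100b and Mbp were higher and Ncam1 lower in the null library and Gfap had 0 reads in the complemented library.

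Most channel genes were silent or nearly so. Of the 194 genes 150 were below 1 RPKM in both libraries, and 29 of those had no read in either. The rest divided into 25 genes at 1 RPKM or more in both libraries, 9 in the null library only and 10 in the complemented library only. Of all 23562 genes 10375 were below 1 RPKM in both libraries and 3386 had no read in either. Another 10752 of all genes reached 1 RPKM in both libraries, 1229 in the null library only and 1206 in the complemented library only. By the 2-fold rule 15 genes (7.73%) were higher in the null library, where 8.57% of all 23562 genes were, and 8 (4.12%) were lower, against 9.13% of all genes. A gene below 1 RPKM in both libraries cannot pass this rule, so 150 channel genes and 10375 of all genes could not be called. These shares and the median difference, 0.00 for the channel genes against -0.002 over all genes, therefore support nothing about the set. Among genes with a mean of at least 1 RPKM, 13 of 39 channel genes were higher and 6 lower, where 14.8% and 15.9% of 12609 genes were. That filter keeps a gene with reads in only 1 library just when it differs, so these counts describe the 39 genes and support nothing.

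**Figure D1:**
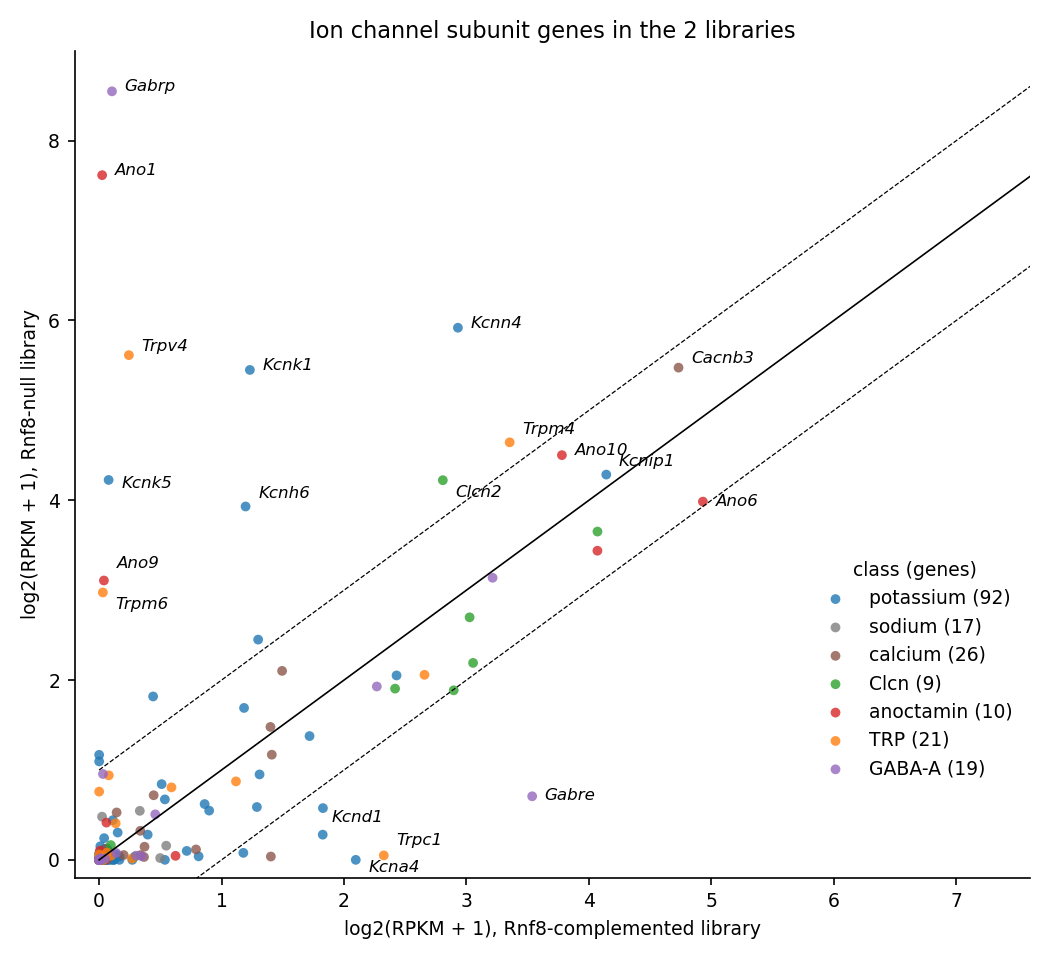
Each point is 1 of the 194 channel genes, placed by log2(RPKM + 1) in the complemented library (horizontal axis) and in the null library (vertical axis), coloured by class. The solid line marks equal levels and the dashed lines a difference of 1. Most points crowd at the origin, Gabrp, Ano1 and Trpv4 stand at the upper left, and Gabre lies farthest below the lines.

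In summed level the 2 libraries differed more than in the counts of genes. The 194 genes added up to 994 RPKM in the null library and 242 RPKM in the complemented library, a ratio of 4.10. Most of that gap lay in a few genes. Without Gabrp and Ano1 the sums were 425 and 242 RPKM, and without the 5 genes with the largest difference (Gabrp, Ano1, Trpv4, Kcnk1 and Kcnk5) they were 317 and 240 RPKM. The class sums were higher in the null library for GABA-A (386 against 23.8 RPKM), anoctamin (249.6 against 58.7), potassium (176 against 55.1), and TRP genes (85.7 against 20.9). Single genes set some of these sums. Without Ano1 the anoctamins summed to 54.4 against 58.7 RPKM, the other direction, without Trpv4 the TRP genes to 37.8 against 20.7 RPKM, and without Gabrp the GABA-A genes to 12.7 against 23.8 RPKM. The calcium genes (51.7 against 34.97 RPKM), the Clcn genes (43.9 against 47.3 RPKM) and the sodium channel genes (1.03 against 1.23 RPKM) differed by less than 1.5-fold in their sums.

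**Figure D2:**
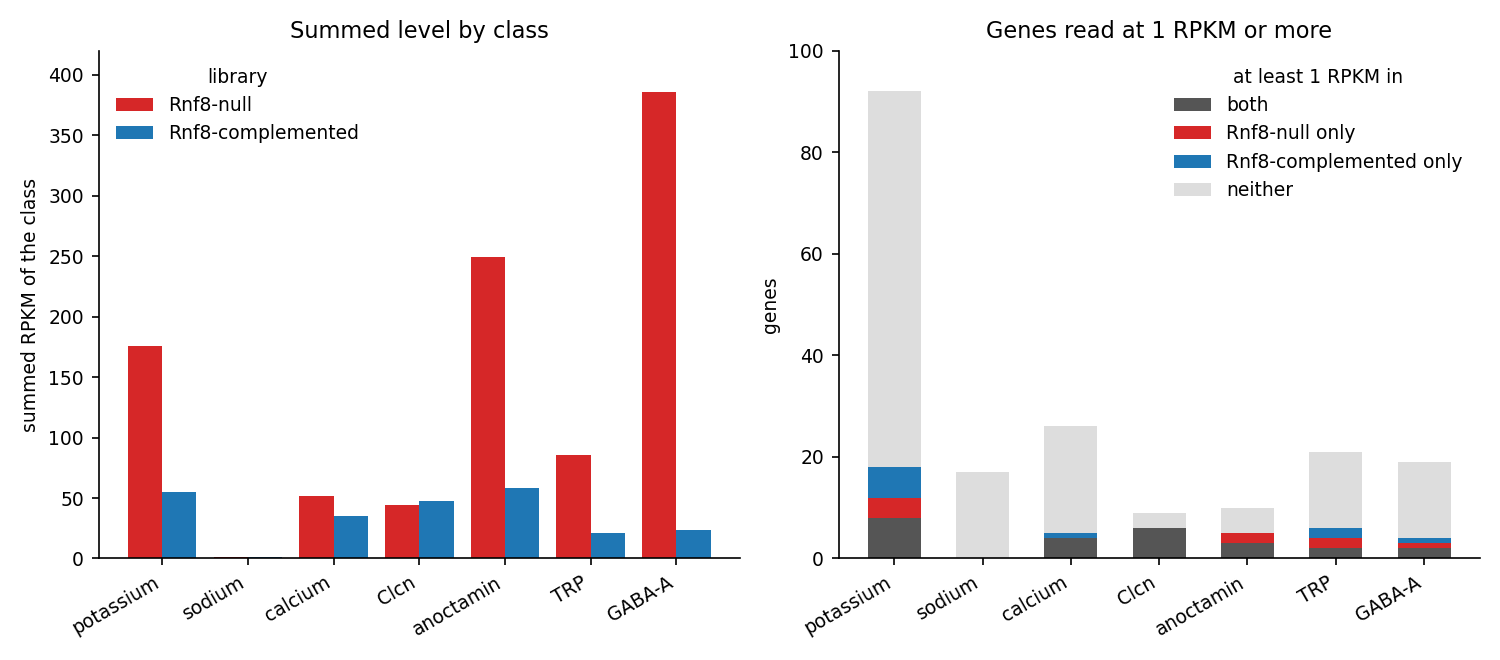
Left, the summed RPKM of each channel class in the Rnf8-null (red) and Rnf8-complemented (blue) library, each bar 1 library with no error bar. Right, the number of genes of each class at 1 RPKM or more in both libraries, in 1 only, or in neither. The GABA-A and anoctamin sums stand far apart, while 74 of 92 potassium and all 17 sodium channel genes are below 1 RPKM in both libraries.

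The 250 bases upstream of the annotated start are shown for the 5 genes with the largest and the 3 with the lowest difference, because these genes carry the contrast between the libraries. They are RefSeq sequences of GRCm38.p6, read 5′ to 3′ on the gene's own strand and ending at the base before the start. Which start the cells used is not shown by counts per gene. RefSeq and the gene spans given below, which are from GENCODE, do not all place a gene's start at the same base. For Gabrp, Kcnk5, Gabre and Trpc1 the RefSeq start lies inside the GENCODE span, so bases next to it, with the E-box of Gabre, are within the GENCODE gene. For Ano1 the whole window, with its E-box, lies inside the GENCODE gene, which begins farther upstream at 144751974 on the minus strand. Capitals mark the E-box CAGGTG or its reverse complement CACCTG, the core motif recognised by Zeb and Snail repressors. AACCNGTT, the Grainyhead motif, and TATAAA were searched on both strands too. The motifs were chosen after the values were seen.
Gabrp, chr11:33578958-33579207, minus strand: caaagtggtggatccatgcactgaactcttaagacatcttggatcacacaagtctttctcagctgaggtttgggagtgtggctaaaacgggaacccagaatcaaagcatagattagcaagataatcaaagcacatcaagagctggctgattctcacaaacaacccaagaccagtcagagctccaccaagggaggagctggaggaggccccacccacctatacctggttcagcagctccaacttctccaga
Ano1, chr7:144738574-144738823, minus strand: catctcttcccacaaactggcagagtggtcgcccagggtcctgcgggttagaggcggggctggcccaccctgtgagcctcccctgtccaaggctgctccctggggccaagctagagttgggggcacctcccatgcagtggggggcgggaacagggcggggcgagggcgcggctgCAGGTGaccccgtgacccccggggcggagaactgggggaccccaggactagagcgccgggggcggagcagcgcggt
Trpv4, chr5:114658422-114658671, minus strand: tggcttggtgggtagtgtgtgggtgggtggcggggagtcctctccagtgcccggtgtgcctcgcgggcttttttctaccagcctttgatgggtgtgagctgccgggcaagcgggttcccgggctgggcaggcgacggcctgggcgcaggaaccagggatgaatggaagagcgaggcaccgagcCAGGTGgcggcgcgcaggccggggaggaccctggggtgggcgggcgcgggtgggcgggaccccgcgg
Kcnk1, chr8:125994852-125995101, plus strand: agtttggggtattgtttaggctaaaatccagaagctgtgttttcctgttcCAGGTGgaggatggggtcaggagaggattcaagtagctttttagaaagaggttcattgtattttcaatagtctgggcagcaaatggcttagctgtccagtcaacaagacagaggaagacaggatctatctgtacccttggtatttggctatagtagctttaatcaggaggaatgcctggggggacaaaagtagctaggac
Kcnk5, chr14:20181783-20182032, minus strand: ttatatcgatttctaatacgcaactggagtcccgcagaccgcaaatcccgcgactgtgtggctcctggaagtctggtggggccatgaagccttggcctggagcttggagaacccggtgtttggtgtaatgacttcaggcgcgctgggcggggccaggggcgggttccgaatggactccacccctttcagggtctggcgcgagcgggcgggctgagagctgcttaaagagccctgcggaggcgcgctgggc
Gabre, chrX:72274722-72274971, minus strand: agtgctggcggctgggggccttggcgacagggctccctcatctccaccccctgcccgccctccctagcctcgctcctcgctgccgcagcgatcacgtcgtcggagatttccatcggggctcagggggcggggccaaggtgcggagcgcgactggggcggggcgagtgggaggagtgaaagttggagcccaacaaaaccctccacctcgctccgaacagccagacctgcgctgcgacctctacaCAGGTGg
Trpc1, chr9:95750349-95750598, minus strand: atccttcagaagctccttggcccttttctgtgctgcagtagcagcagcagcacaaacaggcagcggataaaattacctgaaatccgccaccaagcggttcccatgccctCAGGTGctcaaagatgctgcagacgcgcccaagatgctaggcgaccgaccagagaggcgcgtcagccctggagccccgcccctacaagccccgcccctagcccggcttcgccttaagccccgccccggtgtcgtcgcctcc
Kcna4, chr2:107290339-107290588, plus strand: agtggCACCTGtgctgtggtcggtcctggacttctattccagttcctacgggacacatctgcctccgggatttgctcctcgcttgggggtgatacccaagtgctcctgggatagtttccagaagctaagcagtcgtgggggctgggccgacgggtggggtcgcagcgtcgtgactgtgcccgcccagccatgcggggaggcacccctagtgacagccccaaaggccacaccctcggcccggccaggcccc

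The E-box stood in 6 of these 8 windows, and 17.2% of all 32851 RefSeq windows of this length held it. The 8 genes were picked by their differences and the motif after the values were seen. Base composition was not matched either, so the count is no sign of enrichment and supports nothing. Among the 5 genes higher in the null library it lay 76 bases before the start of Ano1, 67 before that of Trpv4 and 200 before that of Kcnk1, and it was not in the windows of Gabrp and Kcnk5. All 3 windows of the lower genes held it, at 7 bases before the start for Gabre, 141 for Trpc1 and 245 for Kcna4. Neither the Grainyhead motif, held by 1.79% of all windows, nor TATAAA, held by 12.4%, was in the 8 windows. A match or its lack describes these letters and not the binding of a factor. The Ano1 and Trpv4 windows were 72.0% G or C with 16 and 22 CG pairs, whereas Gabrp had 49.2% with 1 CG pair and Kcnk1 44.4% with 0, around a median over all windows of 52.4% and 6 pairs. A window was found for 146 of the 194 genes, 10 of the 15 higher and 6 of the 8 lower. That is below 80% in each case, so a comparison of motifs over the whole set is void.

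GABA-A receptor genes gave the widest split. These receptors are pentamers that pass chloride when GABA binds. Gabrp, which encodes the pi subunit and lies on chromosome 11 from 33550781 to 33578959, had 70132 reads in the null library and 12 in the other. Its level was 373 RPKM (interval 371 to 376) against 0.0753 RPKM (0.0389 to 0.131), 4961-fold higher in the null library (2840 to 9601). It ranked 251st of all 23562 genes by level in the null library and 15346th in the complemented library. Gabre, the epsilon subunit gene on the X chromosome, ran the other way at 0.632 RPKM (0.521 to 0.760) against 10.6 RPKM (10.1 to 11.1), 16.8-fold lower in the null library (13.8 to 20.5). The pi subunit thus made up 96.7% of the summed GABA-A level in the null library, and the epsilon subunit 44.5% in the complemented library.

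The subunits with which a GABA-A pentamer is usually built were at low levels or absent. The beta subunit gene Gabrb1 was read in both libraries at 7.80 and 8.27 RPKM (ratio interval 0.959 to 1.17), and the rho subunit gene Gabrr3 at 2.81 and 3.82 RPKM. Another beta gene, Gabrb2, had 0 reads in the null and 3 in the complemented library. Of the 6 alpha genes, Gabra3 had the most with 7 and 42 reads, and the others had at most 6. Gabrd, a delta subunit gene of receptors outside the synapse, had 101 reads against 2 but only 0.939 RPKM in the higher library, which left it within the 2-fold rule at 0.92. Enzymes that make GABA were scarcely read, Gad1 with 19 reads against 0 and Gad2 with 0 against 3.

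Among the anoctamins, Ano1 showed the same on-or-off pattern as Gabrp. Ano1 encodes a calcium-activated chloride channel of secretory epithelia and lies on chromosome 7 from 144588549 to 144751974. It had 54029 reads in the null library and 4 in the other, that is 195 RPKM (194 to 197) against 0.0170 RPKM (0.00464 to 0.0436), 11466-fold higher (4478 to 42082). Ano9 had 1314 reads against 4, or 7.62 against 0.0273 RPKM, 279-fold higher (109 to 1025). The anoctamins that both libraries shared differed far less. Ano6, a phospholipid scramblase and channel, stood at 14.8 against 29.5 RPKM, just inside the 2-fold rule at -0.95. Ano8 stood at 9.84 against 15.8 RPKM and Ano10 at 21.7 against 12.7 RPKM, both inside the rule. Ano6 took 50.3% of the anoctamin level in the complemented library and Ano1 78.2% in the null library. Ano2, the anoctamin of photoreceptors and olfactory neurons, had 10 reads against 146 and stayed below 1 RPKM in both.

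The Clcn class had the largest share of genes at 1 RPKM or more in both libraries, 6 of 9. Clcn2, a plasma membrane chloride channel, was higher in the null library at 17.7 RPKM (17.2 to 18.2) against 5.997 RPKM (5.68 to 6.33), a 2.95-fold difference (2.77 to 3.13). The chloride-proton exchangers of endosomes and lysosomes lay on the other side or near equality. Clcn5 stood at 2.70 against 6.44 RPKM, called lower at -1.01, which scaling by TMM or by median of ratios moves inside the rule. Clcn3 stood at 3.57 against 7.30 RPKM, 2.05-fold lower in the null (1.95 to 2.15) but inside the rule at -0.86, and a pseudocount of 0.1 RPKM makes it a lower gene. Clcn6 stood at 2.74 against 4.34, Clcn4-2 at 5.49 against 7.14 and Clcn7 at 11.6 against 15.8 RPKM, all inside the rule. The muscle channel gene Clcn1 was nearly silent, at 25 and 12 reads.

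Of the 21 TRP cation channel genes 3 (14.3%) were higher and 1 (4.76%) was lower in the null library. Of all genes 8.57% and 9.13% were. In the TRPV group Trpv4, a calcium-permeable channel opened by swelling and warmth, had 11103 reads against 36, or 48.0 RPKM (47.1 to 48.9) against 0.183 RPKM (0.128 to 0.254), 262-fold higher in the null library (189 to 374). It lies on chromosome 5 from 114622152 to 114658421. The epithelial calcium channel gene Trpv6 (154 against 8 reads) and the skin channel gene Trpv3 (103 against 0) pointed the same way in their reads but stayed under 1 RPKM. Trpv2 had 4 reads against 69, and Trpv1 and Trpv5 at most 2.

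In the TRPM group, Trpm6, a magnesium-permeable channel with a kinase domain, had 3044 reads against 8, or 6.86 against 0.0212 RPKM, 323-fold higher in the null library (164 to 749). Its close relative Trpm7, expressed in most cells, was read at 3.17 against 5.31 RPKM, inside the rule. Trpm4, a calcium-activated channel that passes monovalent cations, stood at 24.0 RPKM (23.4 to 24.6) against 9.21 RPKM (8.82 to 9.63), 2.61-fold higher (2.48 to 2.74). Of the 7 TRPC genes 1 passed the rule, and 5 were below 1 RPKM in both libraries and could not pass it. Trpc1, a subunit of receptor-operated cation channels, had 6 reads in the null library and 587 in the other, or 0.0348 against 4.01 RPKM, 115-fold lower in the null (52.6 to 315). Trpc6, a relative opened by diacylglycerol, had more reads in the null, 98 against 25, and stayed below 1 RPKM. The level of Trpc2, at 0.831 against 1.17 RPKM, is uncertain because 97.5% of its exon bases are shared with Xntrpc, a gene on the same strand.

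**Figure D3:**
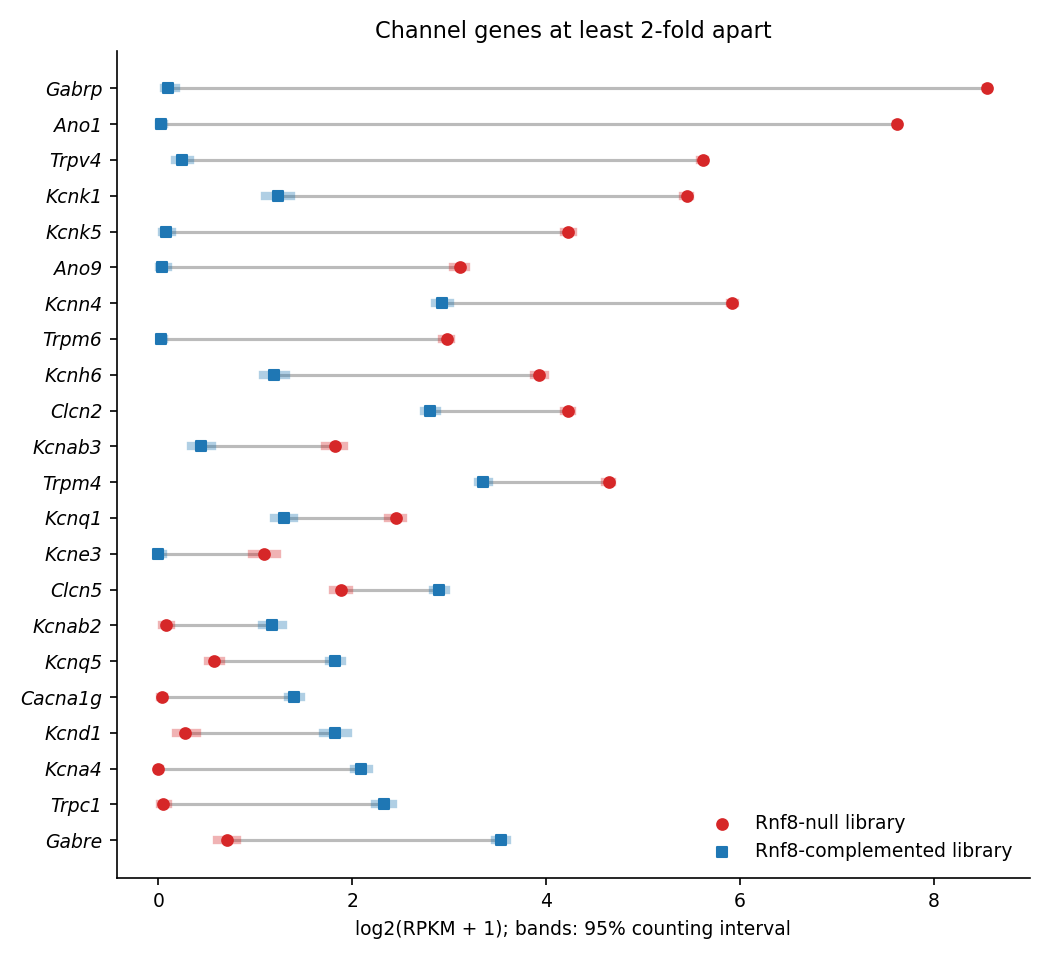
Level of channel genes past the 2-fold rule that are described in the text, as log2(RPKM + 1), in the Rnf8-null (red circles) and complemented library (blue squares), ordered by difference, with bands for the 95% counting interval. The genes from Gabrp to Kcne3 have the red circle to the right, and the 8 from Clcn5 to Gabre have the blue square to the right.

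Potassium channel genes were the largest class, with 8 of 92 (8.70%) higher and 4 (4.35%) lower. Of all genes 8.57% and 9.13% were. Since 74 of the 92 were below 1 RPKM in both libraries and could not pass the rule, the shares support nothing. The 8 higher genes came from several structural families. Among the 14 two-pore genes, which encode background potassium channels, 2 (14.3%) were higher, beside 8.57% of all genes, and 0 lower. Kcnk1 had 5638 reads against 151, or 42.7 RPKM (41.6 to 43.8) against 1.35 RPKM (1.14 to 1.58), 31.7-fold higher in the null library (27.0 to 37.5). An antisense gene, Gm45875, covers 8.01% of its exon bases. Kcnk5, an acid-sensitive channel of kidney and other epithelia, had 3412 reads against 9, or 17.7 against 0.0550 RPKM, 322-fold higher (169 to 704). The mechanosensitive channel gene Kcnk2 was read in both libraries, at 3.14 and 4.38 RPKM, and Kcnk3 had 6 reads against 140.

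Of the 8 genes for potassium channels opened by calcium, sodium or pH, only Kcnn4 passed the rule. The other 7 were below 1 RPKM in both libraries and could not pass it. Kcnn4 encodes the intermediate-conductance calcium-activated channel of epithelia and lymphocytes. Kcnn4 had 10758 reads against 1016, or 59.5 RPKM (58.4 to 60.6) against 6.62 RPKM (6.22 to 7.04), 8.99-fold higher in the null library (8.43 to 9.59). It was the potassium channel gene with the highest level in the null library, at 33.9% of the class sum. The large-conductance channel gene Kcnma1 had 16 and 19 reads, and the small-conductance genes Kcnn1, Kcnn2 and Kcnn3 stayed at or under 0.358 RPKM.

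Voltage-gated potassium channel genes went in both directions. Kcnh6, of the ether-a-go-go-related family, was higher in the null library at 14.3 against 1.29 RPKM, 11.04-fold (9.53 to 12.9). Kcnq1, a channel of heart and epithelia, stood at 4.46 RPKM (4.18 to 4.76) against 1.46 RPKM (1.29 to 1.65), 3.06-fold higher (2.67 to 3.52). Kcne3, which encodes an accessory subunit that holds Kcnq1 channels open in epithelia, had 135 reads against 0, at least 38.2-fold higher when the complemented library is set to 3 reads. Its level was only 1.14 RPKM in the higher library.

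The 4 lower potassium channel genes included 2 of the A-type, rapidly inactivating kind. Kcna4 had 0 reads in the null library and 771 in the other, 3.27 RPKM (3.05 to 3.51), so it was at least 303-fold lower in the null when that library is set to 3 reads. Kcnd1 stood at 0.214 against 2.55 RPKM, 11.9-fold lower (7.80 to 18.9). Kcnq5, which forms M-type channels in neurons, stood at 0.490 against 2.55 RPKM, 5.20-fold lower (4.45 to 6.10). The beta subunit genes of voltage-gated channels differed in direction, with Kcnab2 at 0.0554 against 1.26 RPKM and Kcnab3 at 2.52 against 0.357 RPKM. Kcnab3 shares 5.13% of its exon bases with an antisense gene, Kcnab3os. The third, Kcnab1, stood at 0.538 and 0.817 RPKM.

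Among the accessory subunits that both libraries expressed, Kcnip1 had the highest level. It encodes a calcium-binding partner of A-type channels and stood at 18.5 RPKM (17.9 to 19.1) and 16.7 RPKM (16.0 to 17.3), inside the rule, and was the highest potassium channel gene of the complemented library. Kcnip4 was at 1.60 and 2.29 RPKM. Modifier subunits that form no channel alone were nearly silent apart from Kcns3 at 2.23 against 1.27 RPKM, inside the rule. None of the 15 inward rectifier genes passed the rule and none reached 2 RPKM. Of the 15, 13 were below 1 RPKM in both libraries and could not pass it. In the complemented library the highest were Kcnj13 at 1.48 RPKM and Kcnj14 at 1.44 RPKM, against 0.932 and 0.503 RPKM in the null, where Kcnj15 stood at 0.793 RPKM. Kcnj13 shares 49.1% of its exon bases with Gigyf2 on the opposite strand, so its reads are uncertain.

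**Figure D4:**
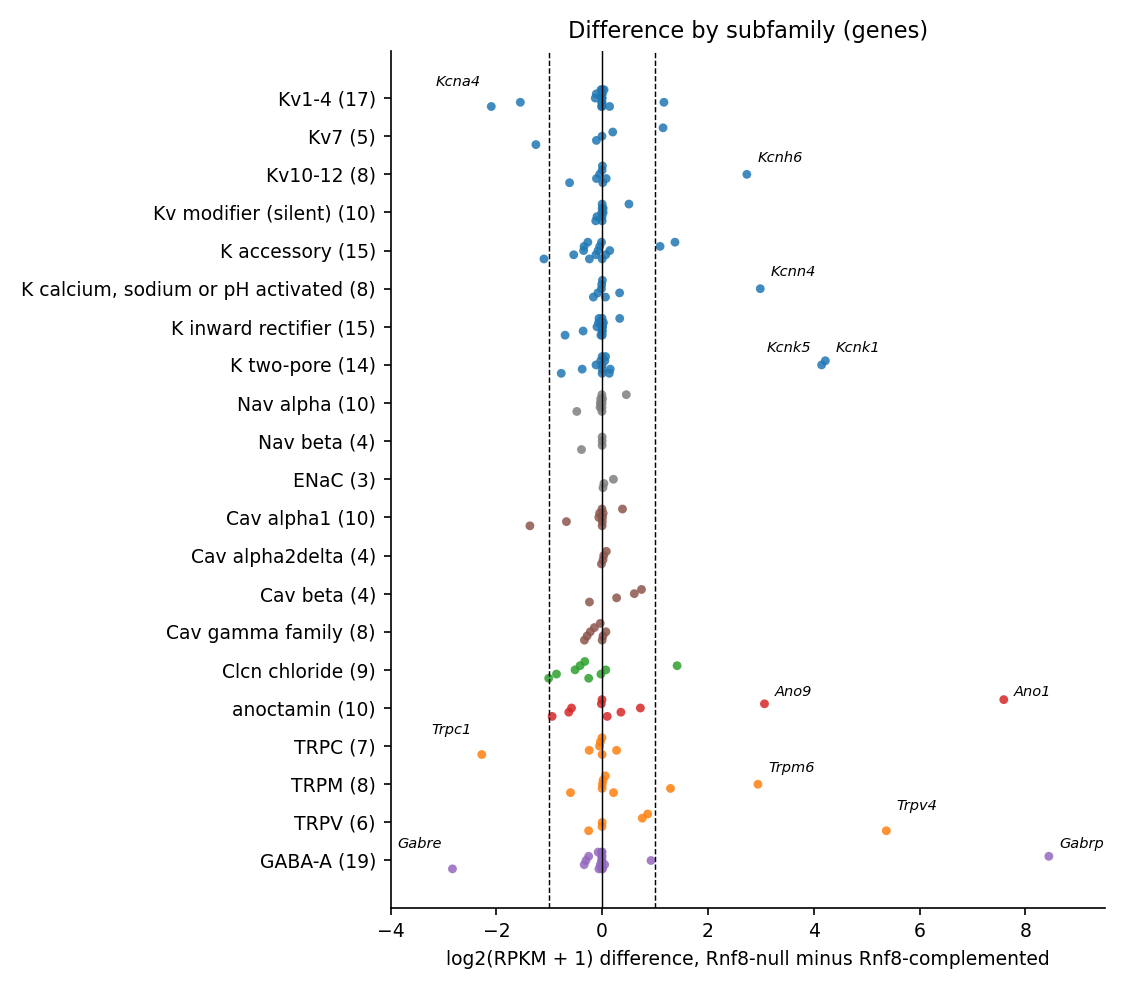
Difference in log2(RPKM + 1), Rnf8-null minus Rnf8-complemented, of every channel gene by subfamily (rows, with the number of genes), 1 point a gene; the solid line is 0 and the dashed lines are -1 and 1. The points beyond the dashed lines are few in each row, such as Kcnk1 and Kcnk5 of the two-pore group and Gabrp and Gabre of the GABA-A group, and the sodium channel rows have none.

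Of the 26 calcium channel genes 21 were below 1 RPKM in both libraries, and 1 gene held most of the class sum. The beta subunit gene Cacnb3, which helps bring the channel to the membrane, was at 43.5 RPKM (42.6 to 44.4) and 25.6 RPKM (24.8 to 26.3), inside the rule, and held 84.1% and 73.1% of the class sum. Cacnb1 stood at 3.29 against 1.82 RPKM, Cacnb2 at 1.25 against 1.66 and the alpha2delta gene Cacna2d3 at 1.79 against 1.64 RPKM, all inside the rule. The 10 pore-forming alpha1 genes summed to 0.582 RPKM in the null library and 2.57 RPKM in the complemented library. Only Cacna1g passed the rule, a T-type channel that opens at low voltage. The other 9 were below 1 RPKM in both libraries and could not pass it. Cacna1g had 14 reads against 753, or 0.0259 against 1.64 RPKM, 63.4-fold lower in the null (37.5 to 116). Cacna1a, the P/Q-type channel of nerve endings, had 61 reads against 452 and stayed below 1 RPKM. The L-type gene Cacna1d had 315 against 63. Its reads are uncertain, as 4.67% of its exon bases overlap Chdh on the opposite strand, which had 3671 reads in the null and 0 in the complemented library. The 8 genes of the gamma family were each under 0.3 RPKM in both libraries.

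No sodium channel gene reached 1 RPKM in either library, so none of the 17 could pass the 2-fold rule. The voltage-gated alpha subunit with most reads in the complemented library was the neuronal gene Scn2a1 (7 against 176 reads). The beta subunit genes Scn2b, Scn3b and Scn4b had 0 in both. The epithelial sodium channel, which takes up sodium across tight epithelia, needs an alpha, a beta and a gamma subunit. Its alpha gene Scnn1a had 92 and 44 reads, and the beta and gamma genes Scnn1b and Scnn1g had 2 and 4 reads in the null library and 0 in the other.

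Several low genes differed in reads without passing a rule set on log2(RPKM + 1). Of the 171 channel genes inside the rule, 11 had a ratio interval wholly beyond 2-fold towards the null library and 23 towards the complemented library. The first group included Gabrd, Trpv6 and Trpv3, and the second Ano2, Kcnk3, Scn2a1, Cacna1a and Kcnh2 (19 against 145 reads). All but Kcnj14 were below 1 RPKM in both libraries. The same count was not made over all genes, so the split of 11 and 23 has no background beside it and supports nothing.

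Channels and transporters outside the set were read beside it. Of 49 other cation channel and calcium release genes, 4 were higher (8.16%) and 3 lower (6.12%) in the null library. Of all genes 8.57% and 9.13% were, and the median difference of the 49 was -0.02. The higher genes were Itpr3, a calcium release channel of the endoplasmic reticulum (40.1 against 6.11 RPKM), Tpcn1 (33.0 against 9.62), P2rx7 (3.81 against 0.872) and Tmem63b (75.2 against 37.0), and the lower were Asic1 (1.37 against 6.56), Pkd2 (10.8 against 35.4) and Hcn2 (0.0273 against 1.62). Of 27 measured other anion channel genes 5 were higher (18.5%) and 1 lower (3.70%), beside 8.57% and 9.13% of all genes, with a median difference of 0.01. These were Clic1 (898 against 240 RPKM), Vdac2, and Lrrc8b, Lrrc8e and Ttyh3, of which Lrrc8b and Lrrc8e encode subunits of the volume-regulated anion channel, and the lower gene was Glrb. Tmem63b, Lrrc8b and Ttyh3 only just passed the rule, at 1.004, 1.01 and 1.001. Their ratio intervals began below 2-fold, at 1.97, 1.99 and 1.98. Cftr, the cyclic AMP-gated chloride channel, had 4 reads against 1.

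Of 41 pump, cotransporter and channel regulator genes 9 were higher (21.95%) and 1 lower (2.44%), with a median difference of 0.05. Of all genes 8.57% and 9.13% were, and the list was chosen with earlier results of these data known. Slc12a2, the cotransporter that loads secretory cells with chloride, stood at 33.6 against 7.71 RPKM, and its activating kinase gene Stk39 at 20.5 against 7.98. The membrane serine proteases Prss8 (18.04 against 0.133 RPKM), St14 (68.2 against 0.0819) and Tmprss4 (1558 against 0 reads), known as activators of the epithelial sodium channel, and the inhibitors Spint1 (71.9 against 0.0614) and Spint2 (324.5 against 0.617) were higher. So were the pump regulators Fxyd3 (52.8 against 0.0694) and Fxyd5 (20.2 against 5.68). The single lower gene was Slc12a4, a potassium-chloride cotransporter with 6 reads against 6122.

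The 3 genes with the largest differences were set beside their neighbours on the chromosome. Gabrp lies 50380 bases from Kcnip1, itself a channel gene, which was inside the rule, and 37035 bases from Ranbp17 on its other side, at 0.857 against 1.92 RPKM and inside the rule. Beyond Ranbp17, Tlx3 had 0 reads against 430 and was lower in the null. Ano1 has Fadd at 6086 bases (5.38 against 3.44 RPKM) and Ppfia1 at 34820 bases (24.7 against 16.2 RPKM), both inside the rule, and Cttn at 117540 bases, which was higher in the null library at 220 against 84.4 RPKM. On its other side Fgf3 and Fgf4 had 0 reads in both libraries. Beside Trpv4, at 10977 bases, Gltp had 2 reads in the null library and 3403 in the other, the opposite direction to Trpv4. Fam222a, 8932 bases to the other side, had 0 reads against 50. Among channel genes close to each other, Kcnk16 at 79567 bases from Kcnk5 had 0 reads in both libraries, as had Kcnmb1 inside the span of Kcnip1.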

How the data were processed

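Gene-level RNA sequencing values of 2 libraries were used, 1 per form of the line. Per the labels' protocols, total RNA was isolated with a column kit and made into Illumina TruSeq libraries. Per the submitters' processing notes, the tools were bedtools, DESeq2, SAMtools 0.1.18 and STAR 2.4.0f1 and the build was mm10 (GRCm38), with no role given. The counter, annotation and use of strand are not stated in what was available here, so reads of antisense or overlapping genes cannot be told apart. For each gene the authors deposited an unnormalized whole-number count of reads. They also deposited RPKM per the file headers, found here to equal the count divided by a gene length and the library's total (57263401 and 48607808 reads). Columns were matched by sample title, and the number left unmatched was 0.

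Differences were taken on log2(RPKM + 1) over all 23562 genes with no filter on low values, and called at 1 or -1. With 1 library a group no test was run. The RPKM intervals are exact Poisson and the ratio intervals Clopper-Pearson on counts, at 95% (scipy 1.17.1 in Python 3.11.15). They take in counting error alone, since without molecular identifiers PCR copies cannot be told from separate molecules. A gene at 0 reads was set to 3 for a bound on its fold. The calling and intervals were tested on simulated counts. Alternatives were pseudocounts of 0.1 and 5 RPKM, filters at a mean of 1 and 5 RPKM, TMM (edgeR 4.0.16) and median-of-ratios scaling (DESeq2 1.42.0 in R 4.3.3), and a call that also needs the ratio interval beyond 2-fold.

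The set, its lists and rules were chosen with earlier results of these data known. The naming rule took, among channel genes of at least 1 RPKM in the higher library, up to 8 per class by absolute difference and up to 4 by level, with those that complete a count, and up to 6 per list of other channels and transporters. Other genes named, such as Gad1, Cftr, Kcnk3 and the neighbours, were chosen after their values were seen. Positions come from GENCODE vM21 (GRCm38), which held all 194 genes, 2 of them under a newer symbol. Some genes are not reported here.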

Additional observations from a re-analysis of the deposited data

How the results depend on the processing

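Most counts of called channel genes depended on how low values were treated. The 15 higher and 8 lower genes became 24 and 25 with a pseudocount of 0.1 RPKM, 11 and 1 with one of 5 RPKM, 13 and 6 at a mean of at least 1 RPKM, and 9 and 1 at a mean of at least 5 RPKM, where Gabre was the lower gene left. Of all 23562 genes 2020 were higher and 2152 lower. These became 2994 and 3681 with a pseudocount of 0.1 RPKM, and 1218 and 1015 with one of 5 RPKM. The filters at 1 and 5 RPKM left 1866 and 2010 of 12609 genes, and 1251 and 1273 of 8997. The larger pseudocount shrinks differences of low genes and the filters test fewer genes by construction. By class, a pseudocount of 0.1 gave 1 sodium, 1 calcium, 6 TRP and 2 GABA-A genes higher, and 10 potassium, 2 sodium, 4 calcium, 3 Clcn, 1 anoctamin, 2 TRP and 3 GABA-A genes lower. A pseudocount of 5 left 4 potassium genes higher and 0 potassium, 0 calcium, 0 Clcn and 0 TRP genes lower. A mean of at least 1 RPKM left 0 calcium genes lower. A mean of at least 5 RPKM left 4 potassium genes and 1 anoctamin gene higher and 0 potassium, 0 calcium, 0 Clcn and 0 TRP genes lower. Its median difference was 0.74 in place of 0.00, where that of all genes was -0.15. This filter keeps a gene with reads in only 1 library just when it differs, so that median supports nothing.

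TMM and median-of-ratios scaling moved the median difference of genes with a mean of at least 1 RPKM from -0.17 to 0.02 and 0.03. Both kept the same 15 higher genes and 7 of the 8 lower, and lost Clcn5, which left 0 Clcn genes lower. Over all genes the split was 2020 higher and 2152 lower as reported, 2343 and 1682 with TMM, and 2368 and 1667 with median-of-ratios scaling. Requiring the ratio interval beyond 2-fold kept all 23 calls. No replicate could be left out, and no paired analysis was possible because each form had 1 library. Depth limits the low genes most, as 58 channel genes had no read from null cells and 46 none from complemented cells.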
